A study of Homo sapiens with 12 samples.

Results

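Integrins are the adhesion receptors that join the matrix outside a cell to the actin or keratin cytoskeleton inside it. The 10 genes described here encode 5 alpha subunits (ITGA2, ITGA3, ITGA5, ITGA6 and ITGAV) and 5 beta subunits (ITGB1, ITGB3, ITGB4, ITGB5 and ITGB8), chosen by symbol from the 24559 gene symbols of the deposited table. All 10 passed the filter on low counts and were among the 16538 genes tested. They were followed in mRNA bound to polysomes, the fractions of a sucrose gradient that hold mRNAs carrying several ribosomes.

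Every integrin on a cell surface is a heterodimer of an alpha and a beta subunit, and the partners decide the ligand. ITGB1 pairs with ITGA2 to bind collagen, with ITGA3 or ITGA6 to bind laminins, with ITGA5 to bind fibronectin, and with ITGAV. ITGB4 pairs only with ITGA6, and that receptor anchors keratin filaments to laminin in hemidesmosomes. ITGAV also pairs with ITGB3, ITGB5 and ITGB8, which bind ligands such as vitronectin and the latent form of TGF-beta. Epithelial cells typically carry the laminin receptors, and invasive breast cancer cells are known to change their integrin repertoire.

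The study altered TRMT112, a cofactor of several RNA and protein methyltransferases, in 3 established triple-negative breast cancer (TNBC) cell lines, and asked how the mRNAs on polysomes changed. There were 12 libraries in 6 groups of 2. MDA-MB-231 and SUM159 cells carried either the control construct that the labels name EV CTRL or a lentiviral TRMT112 shRNA (KD) with puromycin selection, and BT549 cells carried an empty vector (also EV) or, in the OE group, a TRMT112 expression clone, with G418 selection. For the KD lines the study's methods describe the control as a non-silencing shRNA. The labels give no further treatment, and the study's methods describe a short exposure to cycloheximide, which holds ribosomes in place on mRNA, before lysis. SUM159 medium alone contained insulin and hydrocortisone, BT549 cells were grown in RPMI, and the other 2 lines in DMEM/F-12, so line, medium and handling cannot be told apart. No source used here says that replicates were separate cultures, so the p-values measure the spread between these libraries, which may be technical. Without libraries of total RNA, the amount of an mRNA and its ribosome loading cannot be told apart.

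ITGA6 mRNA is spliced to encode either of 2 cytoplasmic tails, called the A and B forms, and the share of each was measured below. The coding bases of the alternative last parts are shown in GRCh38 so that the forms can be compared. The capitals mark the codons of the GFFKR motif, which lies next to the membrane in alpha subunits and which both forms encode. The A form has 105 coding bases, 35 codons before the stop, and the B form has 159 coding bases, 53 codons.
ITGA6 A form (chr2:172501772-172501876, plus strand): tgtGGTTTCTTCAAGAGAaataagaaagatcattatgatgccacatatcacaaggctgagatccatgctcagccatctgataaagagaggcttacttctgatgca
ITGA6 B form (chr2:172504091-172504249, plus strand): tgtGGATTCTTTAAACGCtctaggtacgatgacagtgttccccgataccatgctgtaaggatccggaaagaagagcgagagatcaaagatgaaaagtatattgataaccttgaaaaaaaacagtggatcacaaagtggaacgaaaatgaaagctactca

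The 250 bases before the transcription start are shown for ITGA5 and ITGA6, which were lower in BT549 OE than in EV, and for ITGB5 and ITGB8, which were higher. They were taken from RefSeq (GRCh38.p14), for the window that starts at the 5′ end of the gene's leading transcript. Of the 10 members, 7 had an entry in the promoter set used here, and ITGA3, ITGB3 and ITGB4 had none. The capitals mark matches on either strand to a GC box (GGGCGG) or to the TEAD motif (GGAATG).
ITGA5 (chr12:54419267-54419516, minus strand): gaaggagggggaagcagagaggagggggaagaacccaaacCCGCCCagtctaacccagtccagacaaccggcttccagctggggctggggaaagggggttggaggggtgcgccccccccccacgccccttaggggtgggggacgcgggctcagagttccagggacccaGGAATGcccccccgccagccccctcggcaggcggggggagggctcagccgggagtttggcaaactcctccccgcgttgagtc
ITGA6 (chr2:172427336-172427585, plus strand): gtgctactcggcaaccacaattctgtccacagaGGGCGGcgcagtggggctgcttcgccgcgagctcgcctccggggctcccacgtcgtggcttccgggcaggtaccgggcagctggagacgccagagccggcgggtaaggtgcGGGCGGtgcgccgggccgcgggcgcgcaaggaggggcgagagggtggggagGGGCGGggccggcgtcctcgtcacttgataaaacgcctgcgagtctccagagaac
ITGB5 (chr3:124887366-124887615, minus strand): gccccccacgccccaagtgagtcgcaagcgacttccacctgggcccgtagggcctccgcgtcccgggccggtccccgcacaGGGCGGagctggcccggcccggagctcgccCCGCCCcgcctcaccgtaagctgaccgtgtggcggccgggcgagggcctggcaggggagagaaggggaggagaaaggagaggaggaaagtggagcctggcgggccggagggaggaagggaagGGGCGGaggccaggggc
ITGB8 (chr7:20330650-20330899, plus strand): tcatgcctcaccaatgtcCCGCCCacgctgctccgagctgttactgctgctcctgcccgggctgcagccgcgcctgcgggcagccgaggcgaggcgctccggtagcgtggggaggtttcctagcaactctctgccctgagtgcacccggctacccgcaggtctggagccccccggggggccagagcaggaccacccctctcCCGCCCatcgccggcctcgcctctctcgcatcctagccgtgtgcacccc

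The GC box did not divide the 7 windows by the direction of the BT549 difference. It had 1 match in ITGA5 and 3 in ITGA6, which were lower in OE, and 3 in ITGB1, 3 in ITGB5, 2 in ITGB8 and 0 in ITGAV, which were higher. ITGA2 had 4 matches, and the motif was present in 42.6% of the 35116 promoters of the same length. The TEAD motif had 1 match each in ITGA5 and ITGB1, was not matched in the windows of the other 5 members that had one, and was present in 11.9% of all promoters. No AP-1 motif (TGANTCA) lay fully within any of the 7 windows, and that motif was present in 6.6% of all promoters. GC boxes and TEAD matches did not overlap in the sequences shown, and a match describes these letters alone.

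The total of expected counts per library lay between 22954226 and 27434677. In this unit, a read that fits several transcripts is divided between them. Normalised counts below were scaled by TMM, an edgeR method that sets most genes equal between libraries, and can be compared between libraries but not between genes. The paper reports smaller polysome peaks with KD and larger ones with OE. Normalised counts are relative to the other mRNAs of a library, so a rise or fall here does not give the amount on polysomes. TRMT112 itself differed in the labelled direction within each line. Its normalised count was 4147 and 3938 in MDA-MB-231 EV and 1764 and 1682 in KD, 6332 and 6566 in SUM159 EV and 3909 and 3699 in KD, and 3076 and 3087 in BT549 EV and 4286 and 4319 in OE. The OE values lie within the range of the EV libraries of the 3 lines, so they do not check which cells these libraries came from. The markers of the labelled cell type were in part as TNBC lines have them. PGR had no count outside BT549 EV, EPCAM was at most 4.00 per length in any library and VIM at least 593.5. CDH1 was at most 1.44 and KRT14 at most 7.68, in SUM159 EV. ZEB1, a mesenchymal marker like VIM, was at least 9.79. CDH2, another, was at most 0.348 in MDA-MB-231 and at least 19.3 in the other lines. ESR1, KRT5 and CD3E had no matched transcript in the deposited table. ERBB2 was between 26.5 and 55.7 per length. KRT8 and KRT18, keratins of luminal epithelium, were at least 206.2 per length in MDA-MB-231 and SUM159 and at most 0.635 in BT549. The leukocyte marker PTPRC had at most 16 counts and the endothelial markers PECAM1 and CDH5 at most 119 and 105.

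BT549 OE stood apart from BT549 EV across the whole transcriptome. At an adjusted p under 0.05 and a log2 change of 1 or more in either direction, 31.3% of all genes tested differed between OE and EV in BT549, against 3.2% in MDA-MB-231 KD and 15.7% in SUM159 KD. Between the EV groups of different lines the same rule called 36.9% of genes for SUM159 against MDA-MB-231, 45.4% for BT549 against MDA-MB-231 and 43.7% for BT549 against SUM159. Over the 12590 genes that averaged 50 counts or more, the correlation of the mean log2 CPM (counts scaled by library depth) of OE and EV in BT549 was 0.827, against 0.988 and 0.946 for KD and EV in MDA-MB-231 and SUM159 and between 0.591 and 0.718 for groups of different lines. Genes are not independent replicates, and these values are a description. Whether the libraries labelled BT549 OE came from the same cells as those labelled BT549 EV was not tested, so the construct, the identity of the cells and any other difference between these libraries cannot be told apart in any BT549 value below.

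**Figure D1:**
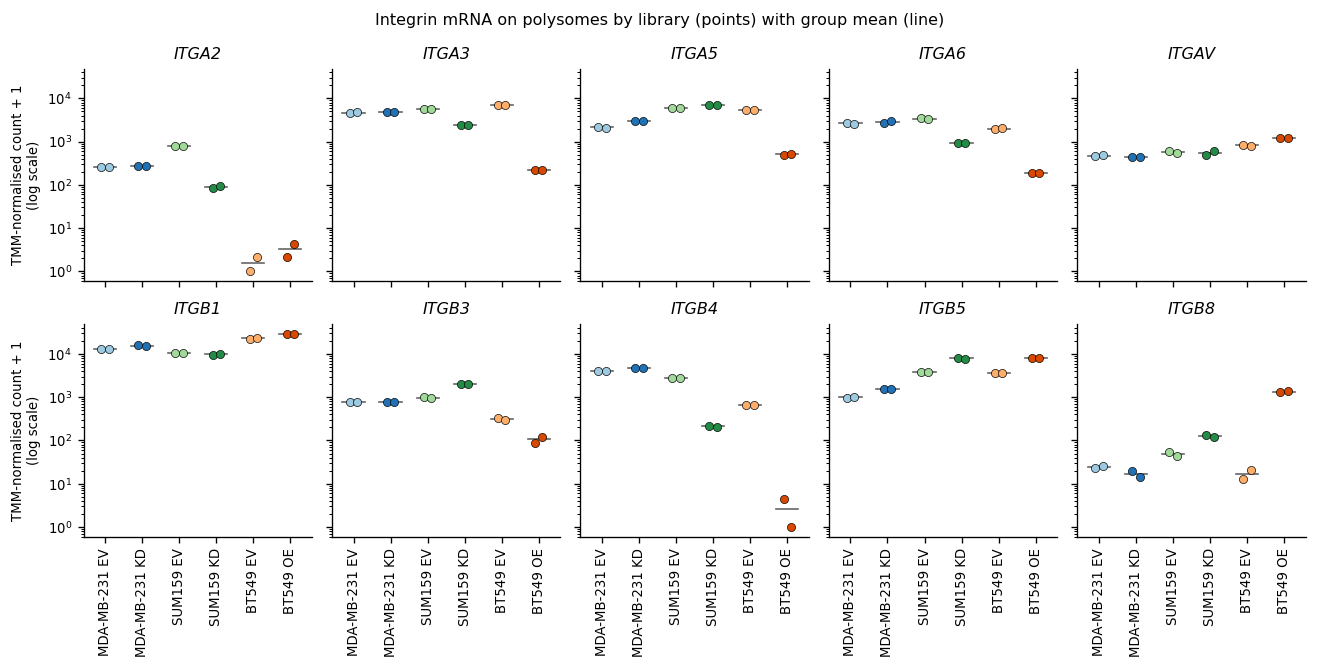
Normalised count plus 1 (log scale) of the 10 integrin genes in each of the 12 libraries (points, coloured by group), with the group mean as a line. ITGA3, ITGA5 and ITGA6 sit at 189.8 to 511.2 on average in BT549 OE and 1998 to 6977 in BT549 EV, while ITGB8 goes from 16.0 to 1351 and ITGB4 from 667.2 to 1.66.

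Levels were compared between genes only per length, that is, by the expected counts per kilobase of transcript scaled to the same sum in each library. ITGB1, the common beta subunit, led in 5 of the 6 groups, from 210.8 ± 6.11 (SD, n = 2) in SUM159 EV to 495.6 ± 16.2 in BT549 OE. In SUM159 KD it came after ITGB5, with 181.7 ± 7.37 against 203.0 ± 13.5 per length, and the libraries of the 2 genes did not overlap. That order rests on the transcript lengths used. ITGB1 had 9651 and 11753 expected counts in SUM159 KD, and ITGB5 had 8202 and 8799. The leading transcript has 3735 bases for ITGB1 and 4440 for ITGB5, and with these lengths for all counts ITGB1 comes first. After ITGB1, the order in MDA-MB-231 EV was ITGA3 (86.6 per length), ITGB4 (64.2), ITGA5 (43.7), ITGA6 (41.9), ITGB5 (28.6), ITGB3 (12.1), ITGAV (7.61), ITGA2 (3.00) and ITGB8 (0.311). No neighbours in that order overlapped between libraries. In MDA-MB-231 KD the libraries of ITGB5 (46.1) and ITGA6 (43.6) overlapped, as did those of ITGB4 (0.019) and ITGA2 (0.0188) in BT549 OE, and no other neighbours did in any group. The summed level of the 10 genes was similar across groups, from 578.3 to 738.7 per length in single libraries, while its make-up was not.

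**Figure D2:**
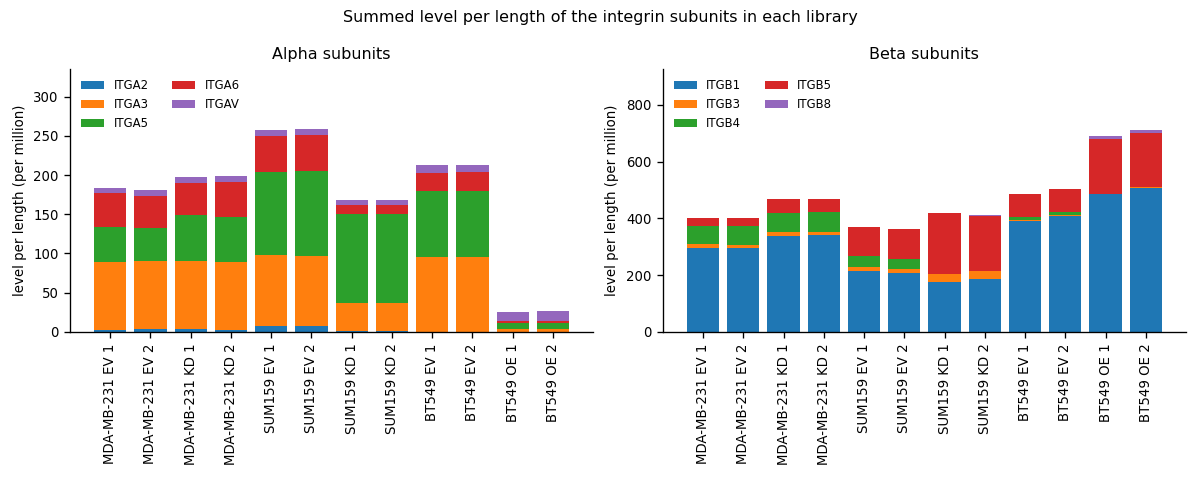
Level per length of each alpha subunit (left) and beta subunit (right), stacked by library on a linear axis that starts at 0. The alpha stack falls in both BT549 OE libraries, where ITGAV is 47.1% of it, and the red ITGB5 part of the beta stack is taller in SUM159 KD and BT549 OE than in their EV libraries.

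With TRMT112 KD in MDA-MB-231, 5 of the 10 integrin mRNAs on polysomes were called, by small differences. ITGA5, ITGA6, ITGB1, ITGB4 and ITGB5 were higher in KD, and no member passed the test in the other direction. The higher call covered 5 of the 10 members against 21.2% of all genes tested, and the lower call 0 against 16.5% (edgeR's quasi-likelihood test, Benjamini-Hochberg adjusted p under 0.05 over all genes tested). At an unadjusted p under 0.05 no member was lower either, and DESeq2's Wald test also called 0 lower. None of the 10 reached a log2 change of 1 in either direction. Their median log2 fold change was 0.09 and that of all genes was 0.00. Scaling by library size alone shifted the median of all genes to -0.08 and the higher share of all calls from 56.2% to 36.7%, and ITGA6 was then not called (log2 fold change 0.04, adjusted p = 0.515).

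With TRMT112 KD in SUM159, the repertoire split. Among the 10 members, the laminin and collagen receptor genes ITGA2, ITGA3, ITGA6 and ITGB4 fell, whereas ITGA5, ITGB3, ITGB5 and ITGB8 rose. ITGB1 had a small fall whose call was lost under several alternatives given below. Of the 8 other integrin subunits tested, 4 were called higher in SUM159 KD and 1 lower. Those higher included ITGA11 (1.28), which also binds collagen, ITGA7 (3.44) and ITGA10 (0.82), so the split describes the members alone. The higher call covered 4 of the 10 members against 28.6% of all genes, and the lower call 5 against 31.4%. A log2 change of 1 or more in either direction, with the same adjusted p, was found for 7 of the 10, against the 15.7% of all genes given above. The median absolute log2 fold change was 1.13 over the members and 0.46 over all genes. ITGAV was the member that did not pass.

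Between OE and EV in BT549, ITGA3, ITGA5, ITGA6, ITGB3 and ITGB4 were lower in OE, and ITGAV, ITGB1, ITGB5 and ITGB8 were higher. The higher call covered 4 of the 10 members against 35.6% of all genes, and the lower call 5 against 35% of all genes. Again 7 of the 10 passed when a log2 change of 1 or more was also required, against the 31.3% of all genes. The median absolute log2 fold change was 2.60 over the members, and 0.70 over all genes. ITGA2 had at most 3 counts in each BT549 library, so no fold is given for it there.

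**Figure D3:**
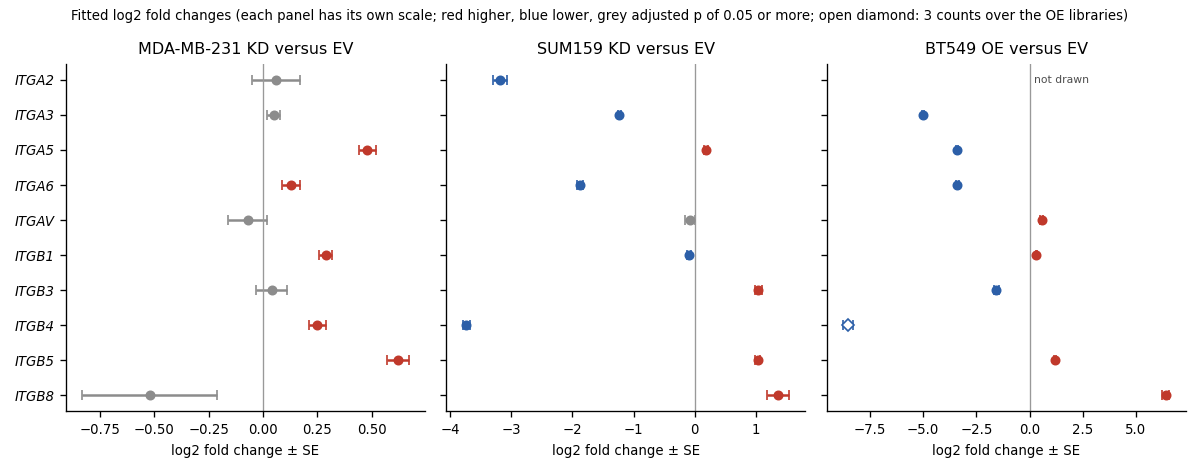
Fitted log2 fold changes with their standard errors for the 10 genes, in panels with separate scales for MDA-MB-231 KD, SUM159 KD and BT549 OE, each against its EV. ITGB5 is to the right of 0 in each panel, at 0.62, 1.03 and 1.19, and ITGA2 is not drawn for BT549, where its counts were 3 or fewer per library.

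ITGB4, the beta subunit of hemidesmosomes, covered the widest range. Its normalised count was 4034 and 4021 in MDA-MB-231 EV and 4843 and 4710.3 in KD, a log2 change of 0.25 ± 0.04 (SE, adjusted p = 3.64e-05). SUM159 libraries had 2856 and 2762 (EV) and 214.7 and 207.6 (KD), 13.3-fold lower, a log2 change of -3.73 ± 0.06 (SE, adjusted p = 1.05e-22). The groups did not overlap in either line. The leading ITGB4 transcript, with 54.8% of the counts, gave 0.18 in MDA-MB-231 (adjusted p = 0.68). In BT549 ITGB4 had 615 and 597 expected counts in the EV libraries and 3 and 0 in the OE libraries. From these counts and the library sizes, EV was 397.3 times OE, with an exact 95% interval of 135.6 to 1929 that covers counting error only. GALK1, on the opposite strand and overlapping ITGB4, had at least 800 counts in every library.

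ITGA6, the alpha partner of ITGB4 and a laminin-binding partner of ITGB1, had normalised counts of 2645 and 2624 in MDA-MB-231 EV and 2772 and 2996 in KD. The log2 change of 0.13 ± 0.04 (SE, adjusted p = 0.0205) lost its call without the first or the second EV library (adjusted p = 0.0745 and 0.0884) and without the second KD library (0.08, adjusted p = 0.312). In SUM159 the counts were 3449.7 and 3305 with EV and 932.5 and 921.1 with KD, a log2 change of -1.87 ± 0.05 (SE, adjusted p = 2.13e-19). In BT549 they were 1956 and 2039.7 with EV and 188.3 and 191.3 with OE, a log2 change of -3.40 ± 0.07 (SE, adjusted p = 7.04e-22). ITGA6 fell less than ITGB4 in both of these lines. Per length, ITGA6 was 0.653 ± 0.0187 of ITGB4 in MDA-MB-231 EV and 0.627 ± 0.0482 in KD (SD, n = 2), and it went from 1.22 ± 0.0349 to 4.38 ± 0.0465 times ITGB4 in SUM159. In BT549 EV it was 3.00 ± 0.0294 times ITGB4.

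ITGA3, the other laminin-binding alpha subunit, was the most abundant alpha mRNA per length in MDA-MB-231 and in BT549 EV. Its normalised counts in MDA-MB-231 were 4644 and 4733 in the EV libraries and 4884 and 4821 in KD, a log2 difference of 0.05 whose 95% interval ran from -0.01 to 0.11 (adjusted p = 0.256). In SUM159 ITGA3 was at 5689 and 5756 with EV and 2486 and 2403 with KD, a log2 change of -1.23 ± 0.03 (SE, adjusted p = 6.27e-19). In BT549 it was at 6909 and 7046 with EV and 220.4 and 219.6 with OE, 31.7-fold lower, a log2 change of -4.99 ± 0.05 (SE, adjusted p = 8.86e-28).

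ITGA2, whose product binds collagen with ITGB1, was line-specific at the level of the EV groups. Its normalised count was 259.6 and 261.2 in MDA-MB-231 EV and 274.5 and 267.8 in KD, a log2 difference of 0.06 with a 95% interval from -0.16 to 0.28 (adjusted p = 0.742). SUM159 EV libraries had 811.5 and 780.1 and KD libraries 84.7 and 90.8, 9.07-fold lower, a log2 change of -3.18 ± 0.12 (SE, adjusted p = 1.49e-16). In BT549 the expected counts were 0 and 1 in the EV libraries and 1 and 3 in OE. Against the 1 count of BT549 EV, the summed 562 counts of MDA-MB-231 EV gave a ratio of 473.0 with an exact 95% counting interval of 84.6 to 18716, and the 1580 counts of SUM159 EV a ratio of 1445 (259.0 to 57126).

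ITGA5, the alpha subunit of the main fibronectin receptor, rose in both KD lines and was lower in BT549 OE. The normalised counts were 2194 and 2088 in MDA-MB-231 EV and 3048 and 2941 in KD, a log2 change of 0.48 ± 0.04 (SE, adjusted p = 8.1e-10). In SUM159 ITGA5 was at 5975 and 6158 with EV and 6956 and 6886 with KD, a smaller log2 change of 0.19 ± 0.03 (SE, adjusted p = 2.9e-05). In BT549 it was at 5437 and 5339 with EV and 502.8 and 519.6 with OE, 10.5-fold lower, a log2 change of -3.40 ± 0.05 (SE, adjusted p = 3.04e-25). No groups overlapped.

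ITGB5, whose product binds vitronectin with ITGAV, was the only member called higher in all 3 comparisons. In MDA-MB-231 its normalised counts were 985.0 and 1038 in the EV libraries and 1557 and 1563 in KD, a log2 change of 0.62 ± 0.05 (SE, adjusted p = 8.88e-10). SUM159 libraries had 3848 and 3907 in the EV libraries and 8269 and 7610.1 in KD, a log2 change of 1.03 ± 0.04 (SE, adjusted p = 7.19e-17). BT549 libraries had 3567 and 3619 in the EV libraries and 8173 and 8218 in OE, a log2 change of 1.19 ± 0.04 (SE, adjusted p = 2.47e-18). ITGB5 was thus higher in the altered group of each line, whether TRMT112 was lowered or raised. Of all genes tested, 21.2%, 28.6% and 35.6% were called higher in the 3 comparisons taken singly. The share called higher in all 3 was not counted, so how common this pattern is among all genes is not known here.

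ITGB8, which with ITGAV releases active TGF-beta from its latent complex, was the scarcest beta mRNA per length in every group except BT549 OE. In MDA-MB-231 its normalised counts were 21.6 and 24.7 in the EV libraries and 18.7 and 13.5 in KD, a log2 difference of -0.52 with a 95% interval from -1.13 to 0.10 (adjusted p = 0.215). In SUM159 they were 53.5 and 43.2 with EV and 130.0 and 118.5 with KD, a log2 change of 1.36 ± 0.18 (SE, adjusted p = 4.6e-07). In BT549 they were 12 and 19.9 with EV and 1303 and 1398 with OE, 84.5-fold higher, a log2 change of 6.39 ± 0.17 (SE, adjusted p = 4.96e-20). The overlapping antisense gene ITGB8-AS1 had at most 6 counts in any library.

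ITGB3, the other ITGAV partner, rose with ITGB5 and ITGB8 in SUM159 KD and went the other way from them in BT549 OE. Its normalised count stayed between 759.2 and 792.9 in the 4 MDA-MB-231 libraries, a log2 difference of 0.04 with a 95% interval from -0.09 to 0.18 (adjusted p = 0.677). In SUM159 it rose from 988.1 and 968.1 in EV to 2039 and 1975 in KD, a log2 change of 1.04 ± 0.06 (SE, adjusted p = 5.08e-13). In BT549 it was lower in OE, with 321.9 and 297.9 in the EV libraries and 88.6 and 121.1 in OE, a log2 change of -1.56 ± 0.12 (SE, adjusted p = 4.2e-11).

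ITGAV itself, the shared alpha subunit of these receptors, was called in BT549 and in neither KD line. Its normalised counts in MDA-MB-231 were 461.9 and 484.0 in the EV libraries and 451.6 and 447.0 in KD, a log2 difference of -0.07 with a 95% interval from -0.24 to 0.10 (adjusted p = 0.558). In SUM159 the EV libraries had 614.6 and 548.9 and the KD libraries 496.0 and 597.6. The groups overlapped, and the log2 difference of -0.08 had a 95% interval from -0.25 to 0.08 (adjusted p = 0.408). Without the second KD library the difference was -0.23 (adjusted p = 0.0453), and without the first it was 0.04 (adjusted p = 0.772). In BT549 ITGAV was at 828.9 and 808.3 with EV and 1217 and 1209 with OE, a log2 change of 0.57 ± 0.07 (SE, adjusted p = 3.73e-07). Its counts were spread over 21 listed transcripts, of which the leading one held 27.8%, and that transcript alone gave an adjusted p of 0.127 in BT549 for a log2 fold change of 0.74. Transcripts annotated as nonsense-mediated decay or retained intron held 13.4% to 51.2% of ITGAV counts in single libraries. In MDA-MB-231 EV they held 51.2% and 20.2%.

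ITGB1 had the highest counts and small differences. Its normalised count was 12894 and 12890.3 in MDA-MB-231 EV and 15824 and 15695 in KD, a log2 change of 0.29 ± 0.03 (SE, adjusted p = 1.66e-08), which its leading transcript alone did not pass (0.20, adjusted p = 0.25). In BT549 it was 22811 and 23608 with EV and 28654 and 29019 with OE, a log2 change of 0.31 ± 0.03 (SE, adjusted p = 3.51e-10). In SUM159 it was 10721 and 10409.9 with EV and 9729 and 10165 with KD, and the log2 change of -0.09 ± 0.03 (SE, adjusted p = 0.0114) lost its call with RLE size factors (-0.03, adjusted p = 0.341). DESeq2's Wald test did not call it either (-0.03, adjusted p = 0.338). The edgeR call was also lost with a filter at a mean of 50 counts (-0.06, adjusted p = 0.0564) and with only the lines compared (-0.08, adjusted p = 0.0534). The leading transcript alone did not pass (-0.23, adjusted p = 0.0831).

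Because each receptor needs both subunits, the levels per length of partners were set side by side, as values with no test. ITGB1 was 1.62 ± 0.0128 times the sum of the 5 alpha members in MDA-MB-231 EV and 1.72 ± 0.00484 times in KD (SD, n = 2). In SUM159 the ratio was 0.818 ± 0.0245 in EV and 1.08 ± 0.0434 in KD. In BT549 it was 1.88 ± 0.0573 in EV and 19.5 ± 0.110 in OE, since 3 of these alpha mRNAs were low in OE. Other alpha partners of ITGB1 were outside this sum. One is ITGA11, with a mean of 1808 normalised counts in BT549 OE and 0 in EV. The sum of ITGB3, ITGB5 and ITGB8 was 5.39 ± 0.0715 times ITGAV in MDA-MB-231 EV and 8.74 ± 0.00329 times in KD. It went from 16.8 ± 1.65 to 40.3 ± 6.32 times ITGAV in SUM159 and from 8.92 ± 0.789 to 17.2 ± 0.743 times in BT549. These levels include transcripts annotated as nonsense-mediated decay or retained intron, with 11.8% to 21.7% of ITGB1 counts per library. mRNA ratios do not give the ratio of subunit proteins.

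Within the 5 alpha mRNAs, the leading member changed with the group. ITGA3 held 47.4% of their summed level per length in MDA-MB-231 EV and 43.9% in KD. In SUM159 ITGA5 led already in EV with 41.7%, against 34.7% for ITGA3, and it held 67.3% in KD. BT549 EV had 44.8% ITGA3 and 39.3% ITGA5. BT549 OE had 47.1% ITGAV, 31.3% ITGA5 and 11.9% ITGA3, of a much smaller sum.

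The difference between the KD effects of the 2 lines was tested in the same model. It was called for 9 of the 10 members, against 50.9% of all genes tested. The effect in MDA-MB-231 minus that in SUM159 was 3.98 for ITGB4, 3.23 for ITGA2, 2.00 for ITGA6, 1.28 for ITGA3, 0.38 for ITGB1 and 0.29 for ITGA5 on the log2 scale. It was -0.41 for ITGB5, -0.99 for ITGB3 and -1.87 for ITGB8. The adjusted p of these 9 was at most 0.000125. For ITGAV the difference was 0.01 with a 95% interval from -0.23 to 0.25 (adjusted p = 1). TRMT112 itself fell more in MDA-MB-231, by 1.23 on the log2 scale against a fall by 0.76 in SUM159, and this difference was called too (adjusted p = 1.83e-07).

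The EV groups gave the starting repertoire of each line. Between SUM159 and MDA-MB-231 all 10 members were called, against 75.7% of all genes tested, with 8 higher in SUM159 (39.2% of all genes) and 2 lower (36.4%). ITGB5 (log2 difference 1.94), ITGA2 (1.61), ITGA5 (1.50) and ITGB8 (1.06) differed most, and ITGB1 (-0.29) and ITGB4 (-0.52) were lower in SUM159. Between BT549 and MDA-MB-231 9 of 10 were called, with 5 higher in BT549 (39.1% of all genes) and 4 lower (40.4%), against 79.5% of all genes in either direction, and the exception was ITGB8 (-0.53, 95% interval -1.17 to 0.11). BT549 EV had more ITGB5 (1.83), ITGA5 (1.33), ITGB1 (0.85), ITGAV (0.79) and ITGA3 (0.57), and less ITGB4 (-2.59), ITGB3 (-1.30) and ITGA6 (-0.40). Between BT549 and SUM159 all 10 were called, against 78.4% of all genes, with 3 higher in BT549 (37.7% of all genes) and 7 lower (40.7%). The 3 were ITGB1 (1.14), ITGAV (0.49) and ITGA3 (0.29). The call for ITGB5 (-0.11, adjusted p = 0.0149) was lost with RLE size factors (-0.03, adjusted p = 0.475). The EV libraries of these comparisons are also the controls of the comparisons with KD and OE, and with library size alone the median of all genes in BT549 against MDA-MB-231 moved from -0.03 to -0.34 and in BT549 against SUM159 from -0.06 to -0.27.

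Transcript forms were read from the split of expected counts over the listed transcripts, which rests on the authors' division of shared reads. The table lists a transcript only if it had a count in some BT549 library. Of ITGA6 counts that could be assigned to the A or B form shown above, the A form held 83.7% and 84.1% in MDA-MB-231 EV and 94.6% and 94.0% in KD. In SUM159 it held 66.3% and 52.2% in EV and 57.6% and 59.4% in KD, and the groups overlapped. In BT549 it held 69.0% and 76.9% in EV and 99.6% and 86.5% in OE, where only 162.9 and 165.8 expected counts were assigned. Among the EV groups, both MDA-MB-231 libraries were above those of the other lines.

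ITGB4 transcripts carrying an extra 159-base coding exon (chr17:75755055-75755213), which lengthens the cytoplasmic part, held 3.0% and 3.5% of ITGB4 counts in MDA-MB-231 EV and 3.4% and 4.4% in KD. In SUM159 they held 16.8% and 17.7% in EV and 14.9% and 12.8% in KD, and in BT549 EV 6.5% and 5.9%. An ITGB1 transcript with another first exon than the leading one held 4.9% and 3.8% of ITGB1 counts in MDA-MB-231 EV, 5.4% and 4.1% in KD, 3.0% and 2.6% in SUM159 EV and 4.6% and 3.2% in KD. Its share in BT549 reached 19.9% and 23% in the EV libraries and 26.1% and 25.4% in OE, above every library of the other lines. No test was run on these shares.

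**Figure D4:**
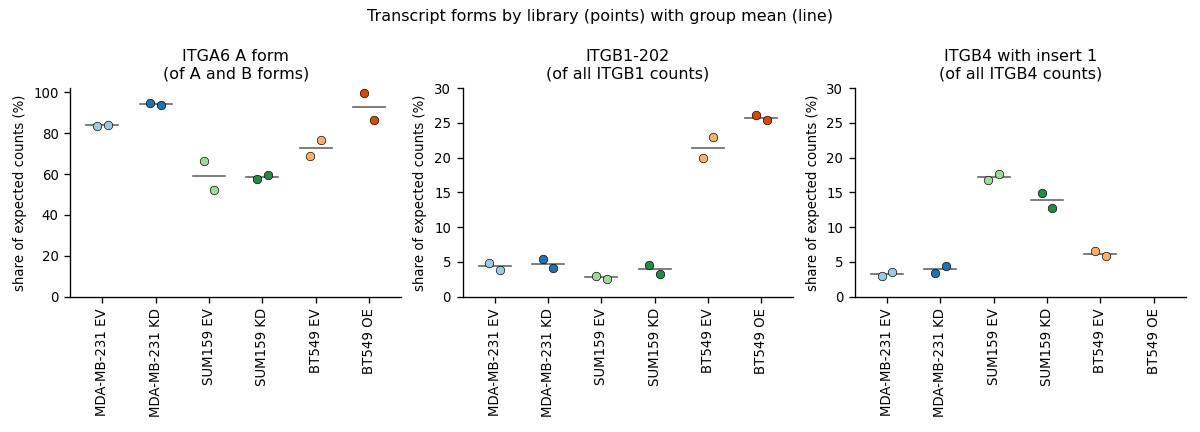
Share of expected counts (%) held by the ITGA6 A form, by the ITGB1 transcript with another first exon (middle panel) and by ITGB4 transcripts with the 159-base exon, in each library (points) with the group mean (line). That ITGB1 transcript is at 19.9% to 26.1% in BT549 and at most 5.4% in the other lines, and BT549 OE is not drawn for ITGB4, which had 3 counts there.

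Genes around the receptors were described by lists from general knowledge. Among 16 other integrin subunits, 8 were tested, of which 1 was higher and 0 lower in MDA-MB-231 KD, 4 higher and 1 lower in SUM159 KD, and 5 higher and 2 lower in BT549 OE. Over all genes tested, the shares called higher and lower were 21.2% and 16.5% in MDA-MB-231 KD, 28.6% and 31.4% in SUM159 KD, and 35.6% and 35% in BT549 OE. The 8 genes had 12.5% and 0%, 50% and 12.5%, and 62.5% and 25% in the same order. The median log2 fold changes were 0.00, 0.64 and 1.12, against 0.00, 0.00 and 0.02 over all genes. ITGB2, the leukocyte beta subunit, went from 673.8 ± 45 to 1139.6 ± 36.5 normalised counts in MDA-MB-231 (SD, n = 2), a log2 fold change of 0.76 (adjusted p = 4.74e-07), and from 35.3 ± 5.8 to 18.9 ± 4.67 in SUM159 (-0.92, adjusted p = 0.0105). In BT549 ITGB2 had 2 counts over the EV libraries and 15 over the OE libraries. ITGA11, a collagen-binding partner of ITGB1, went from 59.4 ± 9.81 to 143.8 ± 26.6 in SUM159 KD (1.28, adjusted p = 6.17e-07). In BT549 it had 0 counts in both EV libraries and 3230 over the OE libraries, at least 547.2-fold higher against 3 counts per library.

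Of the 20 genes tested from the list of integrin activators and adaptors, 9 were higher and 5 lower in MDA-MB-231 KD, 45% and 25% of the list against 21.2% and 16.5% of all genes. In SUM159 KD 14 were higher and 3 lower, 70% and 15% against 28.6% and 31.4%. In BT549 OE 11 were higher and 5 lower, 55% and 25% against 35.6% and 35%. The medians were 0.14, 0.22 and 0.13. FERMT1, the kindlin of epithelial cells, was lower in MDA-MB-231 KD (-1.01, adjusted p = 2.23e-07) and went from 875.8 ± 15.6 to 15.0 ± 11.6 normalised counts in BT549 OE (-5.85, adjusted p = 1.15e-18). It was called lower in SUM159 KD too (-0.71). FBLIM1, which binds filamin and kindlin, was higher in BT549 OE (4.13, adjusted p = 9.01e-24), as was TLN2, a talin, in MDA-MB-231 KD (0.80, adjusted p = 0.0004). FBLIM1 was also called higher in MDA-MB-231 KD (0.36) and SUM159 KD (0.47), and TLN2 in SUM159 KD (0.87). In SUM159 KD, LIMS2 was higher (2.62, adjusted p = 4.42e-05) and FERMT3 lower (-2.25, adjusted p = 0.000241), both with under 25 normalised counts per group. LIMS2 was also called higher in MDA-MB-231 KD (0.25) and BT549 OE (1.08), and FERMT3 lower in BT549 OE (-1.10).

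For focal adhesion signalling and actin links, 33 genes were tested. In MDA-MB-231 KD 15 were higher and 6 lower, 45.5% and 18.2% of the list against 21.2% and 16.5% of all genes. In SUM159 KD 13 were higher and 15 lower, 39.4% and 45.5% against 28.6% and 31.4%. In BT549 OE 19 were higher and 8 lower, 57.6% and 24.2% against 35.6% and 35%. The medians were 0.21, -0.14 and 0.38. TES, a focal adhesion LIM protein, went from 54.4 ± 9.82 to 740.9 ± 22.9 in SUM159 KD (3.76, adjusted p = 2.59e-18) and from 16.0 ± 7.13 to 2048 ± 7.86 in BT549 OE (6.99, adjusted p = 5.25e-23), and was called lower in MDA-MB-231 KD (-0.17). NEDD9, a scaffold of the Cas family, was higher in SUM159 KD (2.79, adjusted p = 1.83e-17), and TGFB1I1, a paxillin relative, in BT549 OE (2.67, adjusted p = 1.01e-22). NEDD9 was called higher in BT549 OE too (1.82), and TGFB1I1 in MDA-MB-231 KD (0.30) and SUM159 KD (0.85). TNS3 (0.91, adjusted p = 8.69e-10) and GIT1 (0.82, adjusted p = 3.95e-12) had higher counts in MDA-MB-231 KD. Both were called lower in SUM159 KD (-0.26 and -0.39) and in BT549 OE (-0.53 and -0.72).

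Of the 12 hemidesmosome and tetraspanin partners tested, 8 were higher and 3 lower in MDA-MB-231 KD, 66.7% and 25% of the list against 21.2% and 16.5% of all genes. In SUM159 KD 6 were higher and 5 lower, 50% and 41.7% against 28.6% and 31.4%. In BT549 OE 4 were higher and 7 lower, 33.3% and 58.3% against 35.6% and 35%. The medians were 0.22, 0.05 and -0.53. COL17A1, the transmembrane collagen of hemidesmosomes that binds ITGB4, went from 188.9 ± 7.31 to 6.63 ± 2.03 in SUM159 KD (-4.83, adjusted p = 2.14e-11) and from 41.8 ± 7.45 to 4.49 ± 1.65 in BT549 OE (-3.19, adjusted p = 2.36e-06). The tetraspanin CD82 was higher in MDA-MB-231 KD (0.87, adjusted p = 6.66e-15) and lower in SUM159 KD (-2.44, adjusted p = 1.88e-22) and BT549 OE (-2.14, adjusted p = 4.41e-22). CD9, another tetraspanin that associates with integrins, was higher in MDA-MB-231 KD (0.79, adjusted p = 9.23e-14) and was called lower in SUM159 KD (-0.41) and in BT549 OE (-0.65).

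Of the 36 integrin ligands tested, 12 were higher and 4 lower in MDA-MB-231 KD, 33.3% and 11.1% of the list against 21.2% and 16.5% of all genes. In SUM159 KD 14 were higher and 12 lower, 38.9% and 33.3% against 28.6% and 31.4%. In BT549 OE 21 were higher and 11 lower, 58.3% and 30.6% against 35.6% and 35%. The medians were 0.03, 0.23 and 0.88. The basement membrane protein NID1 was lower in SUM159 KD (-3.06, adjusted p = 4.98e-09). The laminin chain LAMA4 (2.80, adjusted p = 9.13e-08) and TGFBI (1.31, adjusted p = 9.45e-13) were higher in MDA-MB-231 KD. TGFBI was also called higher in SUM159 KD (0.07) and BT549 OE (3.56). In BT549 the fibrillar collagen COL3A1 went from 24.2 ± 10.7 to 13025 ± 75.1 normalised counts (9.06, adjusted p = 2.22e-26) and periostin, POSTN, an ITGAV ligand, from 9.89 ± 4.59 to 4849 ± 79.1 (8.92, adjusted p = 2.42e-24). COL3A1 was called lower in SUM159 KD (-2.02).

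Of the 21 trafficking genes tested, which recycle integrins between the surface and endosomes, 13 were higher and 2 lower in MDA-MB-231 KD, 61.9% and 9.52% of the list against 21.2% and 16.5% of all genes. In SUM159 KD 6 were higher and 9 lower, 28.6% and 42.9% against 28.6% and 31.4%. In BT549 OE 8 were higher and 10 lower, 38.1% and 47.6% against 35.6% and 35%. The medians were 0.19, -0.07 and -0.11. RAB11FIP1 was higher in MDA-MB-231 KD (0.39, adjusted p = 4.67e-05) and in BT549 OE (3.93, adjusted p = 1.45e-13), and RAB11A was higher in MDA-MB-231 KD (0.32, adjusted p = 1.07e-06). Both were called higher in SUM159 KD (0.62 and 0.36), and RAB11A also in BT549 OE (0.30). CLIC3, which takes part in the recycling of ITGA5 and ITGB1, went from 6.55 ± 2.15 to 117.1 ± 5.43 in SUM159 KD (4.13, adjusted p = 9.96e-11), and had 2 counts over the EV and 12 over the OE libraries in BT549. MYO10, the filopodial myosin that carries integrins, was lower in SUM159 KD (-1.15, adjusted p = 9.02e-14) and was called higher in MDA-MB-231 KD (0.30) and BT549 OE (0.97).

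**Figure D5:**
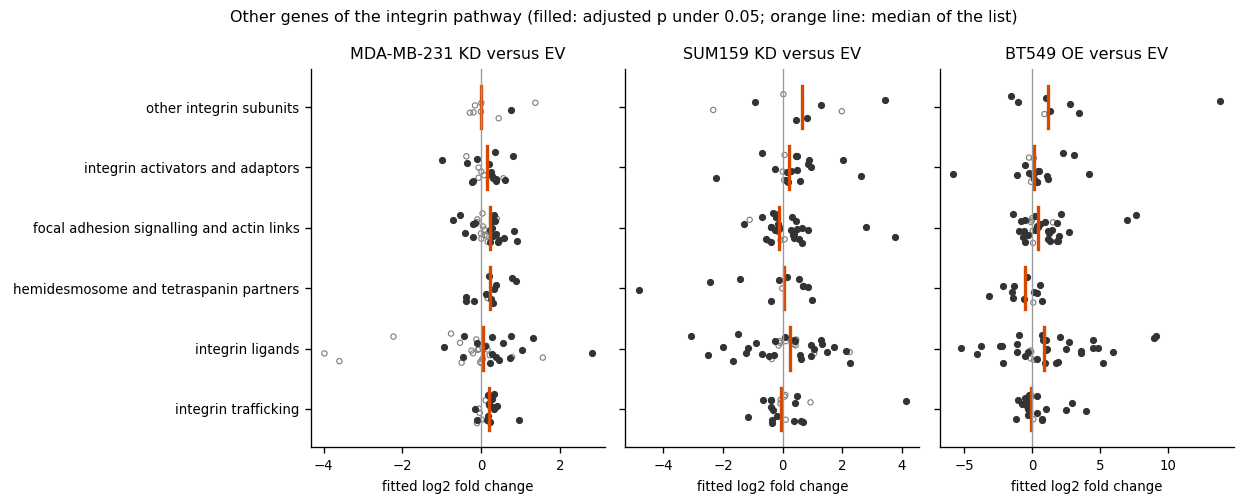
Fitted log2 fold changes of the tested genes of 6 integrin pathway lists in the 3 comparisons, each panel on its own scale (filled points, adjusted p under 0.05; open points, others; orange line, median of the list). The medians lie between 0.00 and 0.22 in MDA-MB-231 KD, and in BT549 OE the ligands have a median of 0.88.

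The gene with the most similar pattern to each member over the 12 libraries was found by the Pearson correlation of log2 CPM among the same 12590 genes, and is given as a description in which the cell lines set most of the pattern. It was PEX5 for ITGA2 (r = 0.997), GBP2 for ITGA3 (0.996), SMARCD1 for ITGA5 (0.990), HROB for ITGA6 (0.987) and DPYSL3 for ITGAV (0.988). For the beta subunits it was CDC42SE1 for ITGB1 (0.998), MRS2 for ITGB3 (0.990), TUBGCP2 for ITGB4 (0.995), DDHD2 for ITGB5 (0.996) and MPC2 for ITGB8 (0.990). In no case was the most similar gene another member.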

How the data were processed

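Polysome-associated RNA of 3 TNBC cell lines was sequenced in 12 libraries (2 per group), and groups were taken from the sample labels. Per the study's methods and the submitters' processing notes, the authors used Trimmomatic for trimming, HISAT2 for alignment to GRCh38, SAMtools for removal of duplicates, and Partek. Removing duplicates without molecular identifiers can lower the counts of abundant mRNAs. The methods state RPKM values and a stranded kit with rRNA depletion, the labels a poly(A) kit. The counting tool, annotation and strand setting are not given in the sources used here, so reads of genes overlapping on opposite strands (such as GALK1 and ITGB4) may be mixed.

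The deposited table by the authors holds unnormalised expected counts per Ensembl transcript. In the 8 MDA-MB-231 and SUM159 columns 5.08% of the rows held a missing mark, and those columns were recorded with the unit other; the deposited marks were taken as 0. Transcripts were matched to GENCODE 44 (79.6%, with 99.25% to 99.41% of the counts of each library), summed to 24559 symbols and rounded. All columns were used.

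Tests used edgeR 4.0.16 (filterByExpr, TMM, quasi-likelihood, 1 model of 6 group means, 6 residual degrees of freedom) in R 4.3.3, checked on simulated data. Genes were called at a Benjamini-Hochberg adjusted p under 0.05 over 16538 genes. Standard errors are the log2 fold change over the root of its F statistic, and 95% intervals span 1.96 standard errors. Library totals of 22954226 to 27434677 set the precision. Alternatives were RLE, library size only, DESeq2 1.42.0, a replicate block, no filter, a filter at a mean of 50 counts, only the lines compared, marked transcripts left out, the leading transcript alone, and each library left out. Level per length divided expected counts by transcript length. Named were all members, the 2 called genes of each list with the largest change per comparison (mean of at least 50 counts, groups not overlapping), and the gene most like each member (prior count 2). The TRMT112 gene was added to check the labels. One gene that this rule names is not reported here. The members and lists were chosen with earlier results of these data known. Python 3.11.15 with pandas 2.3.3, numpy 2.4.6, scipy 1.17.1, Biopython 1.88 and matplotlib 3.10.9 was used.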

Additional observations from a re-analysis of the deposited data

Results flagged for a closer look

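The difference between the KD effects of MDA-MB-231 and SUM159 passed its own test (edgeR's quasi-likelihood test, adjusted p at most 0.000125) for 9 of the 10 integrin genes, against 50.9% of all genes tested. The effect in MDA-MB-231 minus that in SUM159, on the log2 scale, was 3.98 for ITGB4, 3.23 for ITGA2, 2.00 for ITGA6, 1.28 for ITGA3, 0.38 for ITGB1 and 0.29 for ITGA5. It was -0.41 for ITGB5, -0.99 for ITGB3 and -1.87 for ITGB8. In MDA-MB-231 KD the genes ITGB4, ITGA6 and ITGB1 were called higher, and with KD in SUM159 they were called lower. The SUM159 call for ITGB1 was lost with RLE size factors (adjusted p = 0.341), DESeq2's Wald test (0.338) and a mean of at least 50 counts (0.0564). It was also lost with only the lines compared (0.0534) and with the leading transcript alone (0.0831). The MDA-MB-231 call for ITGA6 was lost with library size only (adjusted p = 0.515), with a replicate block (0.0518) and without any of 3 single libraries (0.0745 to 0.312). With the leading transcript alone, ITGA6, ITGB1 and ITGB4 were not called in MDA-MB-231 (adjusted p = 0.561, 0.25 and 0.68). TRMT112 fell by 1.23 in MDA-MB-231 and by 0.76 in SUM159 on the same scale, and its part in these differences was not tested.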

How the results depend on the processing

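Of 909 fold changes of single members recomputed under the alternatives, 873 kept their direction and their side of the threshold, 21 lost their call, 2 gained one and 13 changed sign. None of the 13 was called in the reported test. They were ITGAV in the difference of the KD effects, at -0.02 with RLE size factors and with DESeq2, -0.03 with a mean of at least 50 counts, -0.04 with library size only, -0.06 with only the lines compared, and from -0.11 to 0.15 when a library was left out. In MDA-MB-231 KD, library size only gave -0.03 for ITGA2, -0.04 for ITGA3 and -0.05 for ITGB3, and the leading transcript gave -0.01 for ITGB3. In SUM159 KD, ITGAV went from -0.23 to 0.04 when a library was left out. With the leading transcript of each gene, 2 members in place of 5 were called higher in MDA-MB-231 KD, where ITGA6, ITGB1 and ITGB4 lost their calls. Leaving out a library gave 4 to 5 members higher in MDA-MB-231 KD and 4 to 6 lower in SUM159 KD, and without the first SUM159 EV library ITGAV was not called between the EV groups of SUM159 and MDA-MB-231 (0.22, adjusted p = 0.0688). In these fits the lone library of a group was assumed to vary like the other groups. The replicate numbers did not pair the libraries, since deviations of the same number had correlations of 0.02, -0.02 and 0.00 in MDA-MB-231, SUM159 and BT549. With a replicate block 4 members were higher in MDA-MB-231 KD, where ITGA6 lost its call (adjusted p = 0.0518), and 3474 and 2691 genes in all were higher and lower against 3505 and 2735 without it. With the length of the leading transcript for all counts, the sum of ITGB3, ITGB5 and ITGB8 over ITGAV was 12.7 and 27.9 in SUM159 EV and KD and 7.42 and 11.7 in BT549 EV and OE. Depth limits ITGA2 in BT549, ITGB4 in BT549 OE and ITGB8 in MDA-MB-231, and the fold of ITGB8 in BT549 rests on 11 and 18 counts in EV.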
